A study of Mus musculus with 30 samples.

Results

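Coagulation and fibrinolysis transcripts were measured in mouse liver by counting the RNA-seq reads that fell on each gene. The set holds 35 gene symbols, chosen as clotting factors, fibrinogen chains, inhibitors of clotting and genes of fibrinolysis, and not for how they behaved. They correspond to 36 of the 48440 genes in the table, because Klkb1 stands there under 2 identifiers. One of these, ENSMUSG00000109764, passed the filter on low counts and is the Klkb1 described here. The other, ENSMUSG00000031640, had between 0 and 3 reads in each library and did not pass. The spans of these identifiers overlap on the same strand of chromosome 8. How reads falling on both were counted is not given in the sources used here, so the level of Klkb1 is uncertain. The 34 other symbols all passed, so 35 genes were tested. Each gene was assigned a usual main source. By this, 26 were taken as hepatocyte genes and 6 as endothelial genes (F8, Vwf, Thbd, Procr, Tfpi and Plat). The other 3, F3, F13a1 and Plau, were assigned to other cells. The source of each transcript in these livers was not tested.

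All mice were wild-type C57BL/6 J females, given an osmotic pump at the age of 8 weeks. The pump held either PBS, a salt buffer, or ACBP, the acyl-CoA binding protein that is also called DBI, at 2.5 mg/mL. Loss of appetite was then provoked with CRS, which the labels give only by its letters, from 48 hours after the pump, or with CDDP, the DNA-damaging drug cisplatin, from 72 hours after it. There were 6 groups of 5 libraries: CDDP with an ACBP pump (CDDP+ACBP), CDDP, CRS with an ACBP pump (CRS+ACBP), CRS, ACBP alone, and PBS. The labels of the CDDP and CRS groups name no ACBP. They give neither a batch nor the time from CDDP or CRS to collection, and do not say that each library is a separate animal, so the p-values measure the spread between libraries. No group had less food without an agent, so an effect of CDDP or CRS and one of eating less cannot be told apart.

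Clotting runs as a cascade of serine proteases that circulate as inactive precursors. Tissue factor with factor VII starts it, the contact system can also start it, and both routes lead to factor X and then to thrombin, which cuts fibrinogen into fibrin. Antithrombin, the protein C system and tissue factor pathway inhibitor restrain the cascade, and plasmin dissolves the clot. The liver makes most of these plasma proteins in hepatocytes. Fibrinogen is an acute-phase protein, and its genes are known to respond to interleukin-6 through STAT3 and C/EBP factors. The endothelium supplies factor VIII, von Willebrand factor, thrombomodulin and the endothelial protein C receptor.

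The 3 fibrinogen genes lie side by side on chromosome 3 (GRCm38, GENCODE vM21). Fgg spans chr3:83007724-83015049, Fga spans chr3:83026076-83033627, and Fgb, on the opposite strand, spans chr3:83040141-83049863. Their promoters are shown because the 3 chains gave some of the largest differences of the set and moved together. The sequences are from RefSeq on GRCm38.p6, 5′ to 3′ on the strand of the gene. The lines for Fgb and Fgg give the 250 bases before the start of the gene, where RefSeq and GENCODE place it at the same base. RefSeq starts Fga 77 bases inside the GENCODE span, so its window of 250 bases is shown only up to the GENCODE start, as 173 bases, and no match lay in the rest. Capitals mark matches to CTGGGAA, the core of the interleukin-6 response element described in rat fibrinogen genes. They also mark TTCNNNGAA, the palindrome bound by STAT factors, and TTGCNNCAA, a string like a C/EBP site that is not a palindrome. Both strands were searched, and no marked match overlapped another.
Fga, chr3:83025903-83026075, plus strand: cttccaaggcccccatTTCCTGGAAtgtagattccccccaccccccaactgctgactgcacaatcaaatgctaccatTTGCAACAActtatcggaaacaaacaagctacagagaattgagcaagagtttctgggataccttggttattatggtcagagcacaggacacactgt
Fgb, chr3:83049864-83050113, minus strand: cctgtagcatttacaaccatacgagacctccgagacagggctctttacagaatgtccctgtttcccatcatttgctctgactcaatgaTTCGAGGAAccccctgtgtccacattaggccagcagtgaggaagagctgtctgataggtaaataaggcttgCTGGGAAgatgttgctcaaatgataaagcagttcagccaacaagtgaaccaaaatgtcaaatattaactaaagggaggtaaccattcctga
Fgg, chr3:83007474-83007723, plus strand: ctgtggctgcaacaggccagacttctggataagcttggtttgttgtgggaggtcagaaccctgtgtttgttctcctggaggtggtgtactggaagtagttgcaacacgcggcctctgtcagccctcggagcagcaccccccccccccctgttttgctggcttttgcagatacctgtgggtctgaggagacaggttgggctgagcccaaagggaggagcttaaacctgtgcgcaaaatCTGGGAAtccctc

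The Fga window held the STAT palindrome TTCCTGGAA with its first base at -157 from the GENCODE start of the gene. It held the C/EBP-like string TTGCAACAA at -96. The Fgb window held TTCGAGGAA at -162 and CTGGGAA at -91, and the Fgg window held CTGGGAA at -13. These letters are common. CTGGGAA occurred in 9.1% of 32851 mouse promoter windows of 250 bases before the RefSeq start, TTCNNNGAA in 7.02% and TTGCNNCAA in 1.74%. Chromosome 18, where Proc lies, was left out of these windows. Of the 35 symbols, 27 had a promoter among these windows. Of these, 4 held CTGGGAA (F9, Fgb, Fgg and Tfpi), 4 held TTCNNNGAA (F9, Fga, Fgb and Pros1) and 1 held TTGCNNCAA (Fga). The palindrome bound by HNF1 was in none of the 27 and in 0.00913% of all windows. A match is a string of letters and was not tested for binding.

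Reads on genes ranged from 13957380 to 18479134 per library. Levels are given in CPM, the reads of a gene relative to the TMM-scaled size of its library, and a gene was called changed when its adjusted p in edgeR's quasi-likelihood test over 16304 genes was under 0.05. Several libraries stood apart. Muscle transcripts were highest in 6 (PBS 2, CRS 1, ACBP 2, CDDP+ACBP 2, CRS+ACBP 3 and CRS+ACBP 4). The muscle markers summed to 1650 to 7952 CPM in these 6. They were raised less in others, among them CDDP 5 with 649 CPM and CRS 4 with 611 CPM, while CDDP 4 had 3.18 CPM. Raised brain transcripts were seen in ACBP 4. The check that left out 7 libraries took the 6 and ACBP 4, and kept CDDP 5. CDDP 5 had the lowest scaling factor of the 30, 0.701, and was the highest CDDP library for many of the hepatocyte genes below. Cdkn1a, a p53 target that rises with DNA damage, was at 5.12 to 63.2 CPM in CDDP+ACBP, 154 to 456 CPM in CDDP and 0.688 to 6.46 CPM in PBS. CDDP+ACBP 4 had the value of 5.12 and so lay within the PBS range. The hepatocyte markers summed to 88253 to 177574 CPM in CDDP and to 83673 to 111916 CPM in PBS, with none at 0, so the tissue label held.

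Per kilobase of exon, which allows a rough comparison between genes, the set spanned more than 4 orders of magnitude in PBS livers. The length used is the union of all annotated exons of a gene, 8546 bases for Serpinc1 and 1594 for Apoh. The order of the genes therefore depends partly on the annotation. Vtn, encoding vitronectin, stood highest at 1207 ± 96.2 RPKM (CPM divided by the exon length in kilobases), followed by Apoh at 865 ± 130 RPKM and Kng1 at 862 ± 63.9 RPKM (SD, n = 5). F13a1 stood lowest at 0.0356 ± 0.0248 RPKM. The hepatocyte gene with the lowest level in PBS, Pros1, had 7.44 ± 0.846 RPKM, above the highest of the 9 endothelial and other genes, F3 with 2.42 ± 0.598 RPKM. In CDDP livers Fgg had 2256 ± 1284 RPKM, Apoh 1622 ± 473 RPKM and Fgb 1546 ± 746 RPKM, the 3 highest means of the set there.

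**Figure D1:**
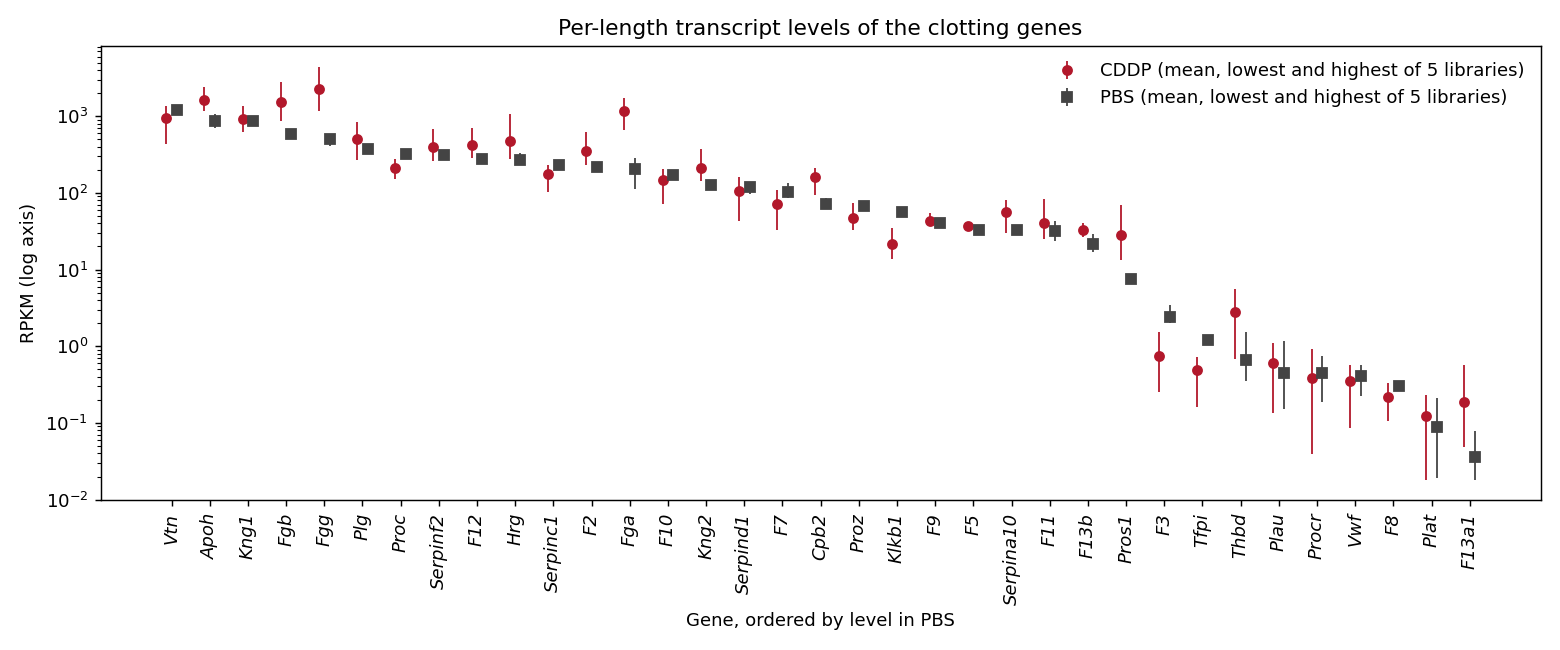
Transcript level per kilobase of exon, in RPKM on a log axis, of the 35 tested clotting genes, ordered by their level in PBS. Red circles are CDDP means and grey squares PBS means, with lines to the lowest and highest of 5 libraries. Hepatocyte genes fill the left of the plot down to Pros1, and the genes of endothelial and other cells, from F3 at 2.42 RPKM in PBS, fill the right.

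CDDP livers were first compared with PBS livers, the contrast that shows how the cisplatin model affects the liver's clotting transcripts. The fibrinogen genes, protein S and thrombomodulin stood higher, and tissue factor, prekallikrein and tissue factor pathway inhibitor stood lower. Of the 35 genes, 14 rose and 5 fell. Over all tested genes, 23.1% rose and 18.3% fell in this comparison, so a large share of the liver's transcripts differed. The median log2 fold change was 0.34 over the set and 0.02 over all genes. Hepatocyte genes gave 12 rises and 3 falls of 26 with a median of 0.37, and endothelial genes gave 1 rise and 1 fall of 6 with a median of -0.19. The 11 hepatocyte markers, none of them in the set, gave 4 rises and 2 falls with a median of 0.33. The shift of the median was thus not particular to the clotting genes. Bulk RNA cannot tell fewer cells of a type from less RNA per cell.

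All 3 fibrinogen chains rose. Fga, the alpha chain, had 3449, 1991, 2636, 4510 and 5280 CPM in the CDDP libraries, against 473, 709, 866, 745 and 341 CPM in the PBS libraries. Every CDDP library lay above every PBS library. The log2 fold change was 2.51 with an approximate standard error of 0.42 (edgeR adjusted p = 3.31e-05), or 5.7-fold. Fgg, the gamma chain, had 4483, 2455, 3129, 4245 and 9295 CPM in CDDP and 870, 1190, 1223, 1171 and 843 CPM in PBS. The groups did not overlap, and the log2 fold change was 2.16 ± 0.34 (SE, edgeR adjusted p = 1.94e-05). A long noncoding RNA, Gm30097, overlaps Fgg on the opposite strand, and the strand setting of the counting is not given in the sources used here. Fgb, the beta chain, had 6109, 3262, 4061, 5463 and 10562 CPM in CDDP and 2044, 2223, 2234, 2545 and 1976 CPM in PBS. The groups again did not overlap, with a log2 fold change of 1.42 ± 0.26 (SE, edgeR adjusted p = 0.000121). Together the chains held 1.32% ± 0.412 of all gene reads in CDDP livers and 0.398% ± 0.0503 in PBS livers (SD, n = 5 each). Without CDDP 5 the log2 fold changes were 2.33, 1.76 and 1.10 for Fga, Fgg and Fgb, and all 3 kept their calls.

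**Figure D2:**
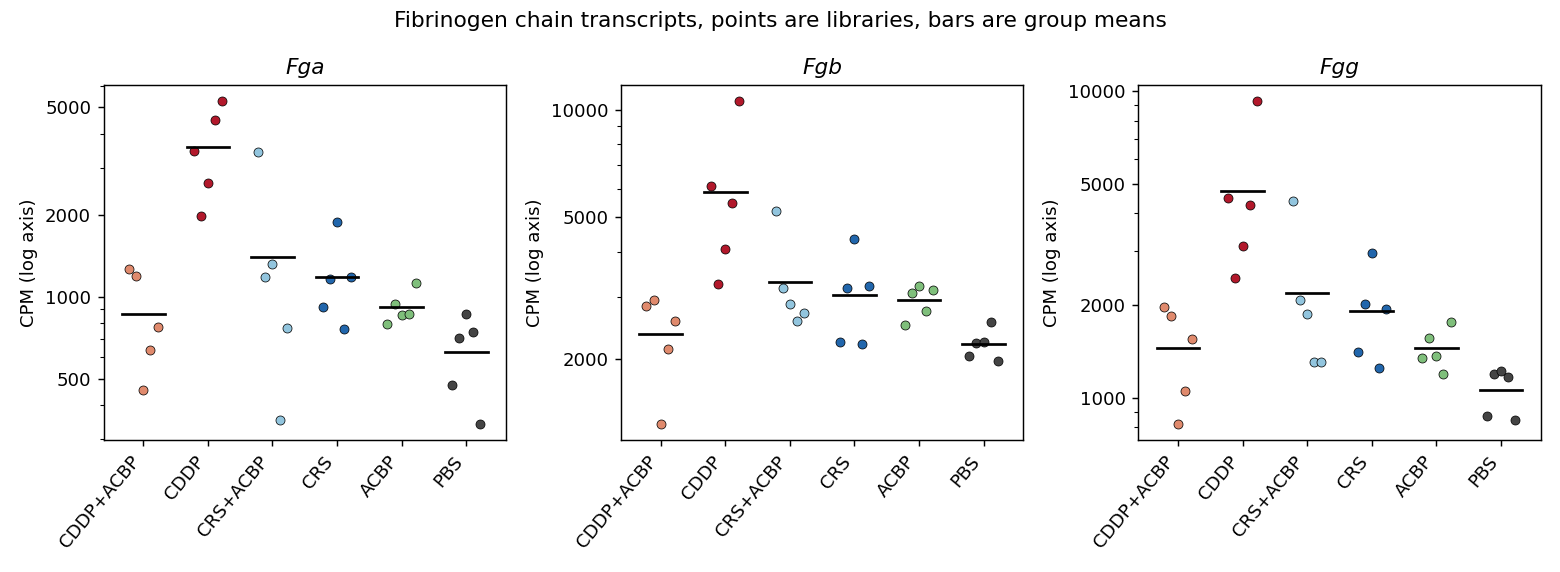
CPM of Fga, Fgb and Fgg on a log axis, with 1 point per library and a bar at the mean of the 5 libraries of a group. The CDDP libraries, from 1991 CPM up for Fga, lie above all PBS libraries and above all CDDP+ACBP libraries in each panel, and CRS+ACBP 1 stands above the rest of its group.

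Of the 4 vitamin K dependent procoagulant factors, F2, which encodes prothrombin, rose, and F7, F9 and F10 did not pass the test. F2 had 1650, 1049, 1496, 1164 and 2848 CPM in CDDP and 940, 1023, 1150, 1054 and 889 CPM in PBS. The groups overlapped through CDDP 2, and the log2 fold change was 0.70 ± 0.22 (SE, edgeR adjusted p = 0.0134). The call rested on CDDP 5: without that library it was 0.41 (edgeR adjusted p = 0.0998). F7, the partner of tissue factor, had 201, 60.5, 124, 84.3 and 188 CPM in CDDP and 247, 162, 194, 172 and 188 CPM in PBS. Its log2 fold change of -0.55 ± 0.23 missed the threshold (edgeR adjusted p = 0.0567), and without CDDP 5 it was -0.71 (edgeR adjusted p = 0.0186). F10, whose product forms the prothrombin-cleaving enzyme, had a log2 fold change of -0.23 with a 95% interval of -0.58 to 0.11. F9, the haemophilia B gene, had 0.09 with an interval of -0.18 to 0.37. F7, F10 and Proz are neighbours on chromosome 8 (chr8:13026034-13076026).

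Of the remaining procoagulant genes, F13b, the carrier subunit of the fibrin-crosslinking factor XIII, rose with 84.4 ± 13.1 CPM in CDDP and 55.1 ± 12.4 CPM in PBS (SD, n = 5 each; log2 fold change 0.62, edgeR adjusted p = 0.011). F5, the cofactor of factor Xa, had 278 ± 16.5 CPM in CDDP and 244 ± 12.8 CPM in PBS (log2 fold change 0.19, 95% interval -0.06 to 0.43). Gm16548 overlaps F5 on the opposite strand.

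The contact system was split. Of its 5 genes, F12 and Kng2 rose, Klkb1 fell, and F11 and Kng1 did not pass the test. Klkb1 encodes prekallikrein, the protease that activates factor XII and releases bradykinin from kininogen. It had 183, 77.7, 159, 72.9 and 72.2 CPM in CDDP and 271, 300, 310, 310 and 308 CPM in PBS. The groups did not overlap, and the log2 fold change was -1.41 ± 0.23 (SE, edgeR adjusted p = 2.91e-05). Its neighbour F11 (chr8:45241174-45262031) had 90.8 ± 53.4 CPM in CDDP and 71.6 ± 16.2 CPM in PBS (log2 fold change 0.34, edgeR adjusted p = 0.325). F12, the factor XII gene, had 676, 764, 701, 566 and 1384 CPM in CDDP and 538, 515, 572, 555 and 509 CPM in PBS. Only CDDP 4 fell within the PBS range, and the log2 fold change was 0.61 ± 0.17 (SE, edgeR adjusted p = 0.00441), or 0.33 without CDDP 5. Kng2, a kininogen gene, had 592, 464, 446, 397 and 1029 CPM in CDDP and 364, 323, 376, 315 and 367 CPM in PBS, with no overlap. Its log2 fold change was 0.75 ± 0.18 (SE, edgeR adjusted p = 0.00196), or 0.44 without CDDP 5. Kng1 differed by 0.11 ± 0.19 (SE, log2). Kng1 and Kng2 are near-identical copies, so the split of reads between them is uncertain.

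The protein C and protein Z systems, which restrain clotting, were split as well. Pros1 encodes protein S, the cofactor of activated protein C. It had 65.5, 107, 54.8, 71.1 and 280 CPM in CDDP and 26.6, 31.2, 34.7, 27.2 and 32.3 CPM in PBS. Every CDDP library was above every PBS library, and CDDP 5 was far above the other CDDP libraries. The log2 fold change was 1.93 ± 0.28 (SE, edgeR adjusted p = 6.39e-06), or 1.30 without CDDP 5 (edgeR adjusted p = 1.16e-06). Proc, the gene of protein C itself, fell, with 596, 433, 562, 376 and 679 CPM in CDDP and 759, 728, 838, 849 and 834 CPM in PBS. The groups did not overlap (log2 fold change -0.60 ± 0.14, SE, edgeR adjusted p = 0.00141). Proz encodes protein Z and Serpina10 its partner, the protein Z dependent inhibitor of factor Xa. Serpina10 rose, with 244, 106, 157, 201 and 278 CPM in CDDP and 110, 115, 115, 130 and 105 CPM in PBS (log2 fold change 0.78 ± 0.19, SE, edgeR adjusted p = 0.00142). All CDDP libraries except CDDP 2 were above all PBS libraries. Proz fell, with 407, 191, 321, 204 and 180 CPM in CDDP and 390, 361, 386, 376 and 349 CPM in PBS (log2 fold change -0.52 ± 0.18, SE, edgeR adjusted p = 0.0247). CDDP 1 was above all PBS libraries, and the call was lost without CDDP 2, CDDP 4 or CDDP 5 (edgeR adjusted p from 0.0715 to 0.0799).

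None of the 3 serpin inhibitors of thrombin and plasmin passed the test. Serpinc1, antithrombin, had 1525 ± 524 CPM in CDDP and 1976 ± 139 CPM in PBS (SD, n = 5 each; log2 fold change -0.37, 95% interval -0.76 to 0.01). Serpind1, heparin cofactor II, had a log2 fold change of -0.17 (interval -0.67 to 0.34), and Serpinf2, alpha-2-antiplasmin, had 0.34 (interval -0.03 to 0.72). Zbtb37 overlaps Serpinc1 and Pi4ka overlaps Serpind1 on the opposite strand, so both values are uncertain.

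Among the 5 plasma genes of fibrinolysis and its regulation, Cpb2, Apoh and Hrg rose and Plg and Vtn did not pass the test. Cpb2 encodes the carboxypeptidase known as TAFI, which protects fibrin from plasmin. It had 343, 152, 295, 267 and 244 CPM in CDDP and 106, 117, 139, 126 and 99.5 CPM in PBS, with no overlap (log2 fold change 1.15 ± 0.25, SE, edgeR adjusted p = 0.000736). Apoh, beta-2-glycoprotein I, which binds phospholipid, had 2529, 1852, 2462, 2233 and 3848 CPM in CDDP and 1420, 1134, 1701, 1326 and 1317 CPM in PBS. The groups did not overlap (log2 fold change 0.91 ± 0.23, SE, edgeR adjusted p = 0.00219), though Prkca overlaps Apoh on the opposite strand. Hrg encodes histidine-rich glycoprotein, which binds plasminogen and heparin. It had 859, 556, 577, 620 and 2132 CPM in CDDP and 455, 543, 657, 526 and 485 CPM in PBS. Its log2 fold change of 0.83 ± 0.27 (SE, edgeR adjusted p = 0.0147) rested on CDDP 5, since without that library it was 0.29 (edgeR adjusted p = 0.227). Plg, plasminogen, had 1849 ± 815 CPM in CDDP and 1406 ± 80.8 CPM in PBS (log2 fold change 0.40, 95% interval -0.04 to 0.83), and Slc22a3 overlaps it on the opposite strand. Vtn differed by -0.34 ± 0.20 (SE, log2).

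**Figure D3:**
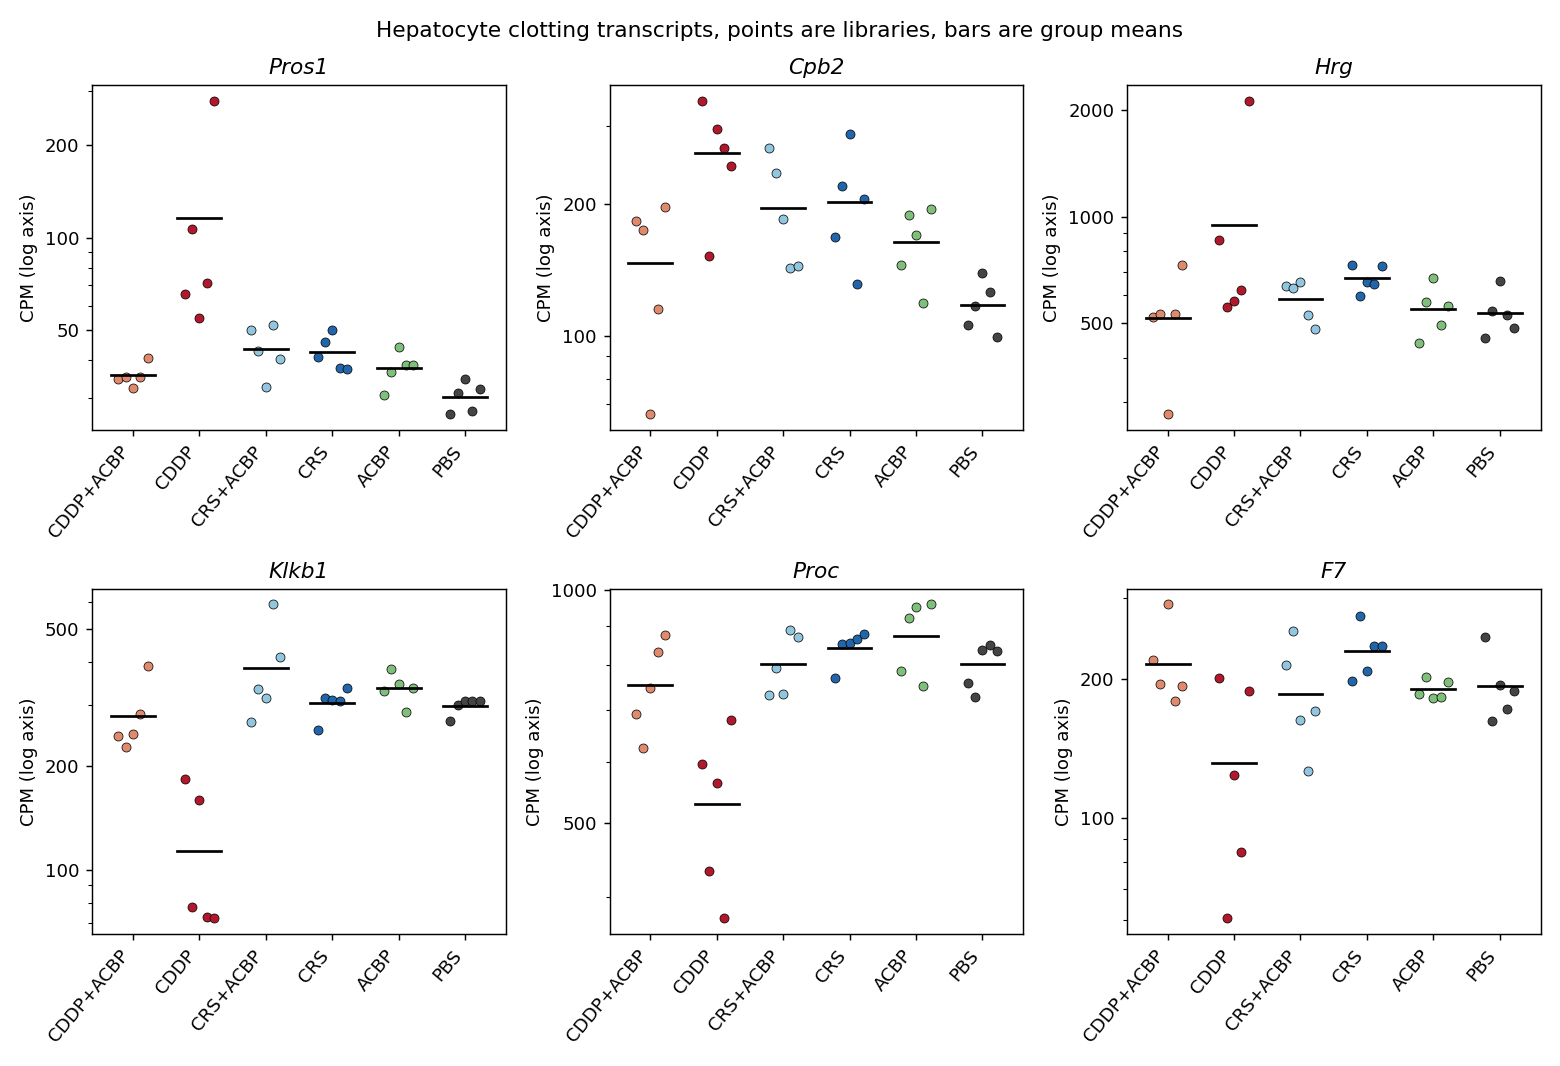
CPM on a log axis of 6 hepatocyte genes, with 1 point per library and a bar at the group mean. In CDDP, Pros1 and Cpb2 lie above PBS and Klkb1 and Proc lie below it without overlap, Hrg overlaps PBS except for CDDP 1 and CDDP 5, and F7 did not pass the test.

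Among the endothelial genes, Thbd and Tfpi moved in opposite directions. Thbd (chr2:148404466-148408188) encodes thrombomodulin, the receptor that turns thrombin into an activator of protein C. It had 5.29, 18.3, 4.88, 21 and 2.5 CPM in CDDP and 1.85, 5.7, 1.35, 1.97 and 1.31 CPM in PBS. The only PBS library within the CDDP range was the muscle-rich PBS 2, and the log2 fold change was 2.09 ± 0.50 (SE, edgeR adjusted p = 0.00156). Tfpi encodes tissue factor pathway inhibitor. It had 3.98, 1.89, 2.58, 3.88 and 0.887 CPM in CDDP and 6.82, 6.34, 6.21, 6.22 and 7.38 CPM in PBS, with no overlap (log2 fold change -1.30 ± 0.32, SE, edgeR adjusted p = 0.00188).

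The 4 other endothelial genes did not pass the test. F8, factor VIII, had 3.24, 2.34, 1.37, 2.82 and 1.05 CPM in CDDP and 3.35, 2.91, 3.32, 3.02 and 2.63 CPM in PBS (log2 fold change -0.48, 95% interval -1.13 to 0.16), and Fundc2 overlaps it on the opposite strand. Vwf, von Willebrand factor, had 7.91, 4.46, 5.71, 9.18 and 1.37 CPM in CDDP and 5.98, 9.25, 3.56, 5.98 and 8.06 CPM in PBS (log2 fold change -0.19, interval -0.75 to 0.37). For F8 and Vwf the lowest of all CDDP libraries was CDDP 5. Procr, the endothelial protein C receptor, had a log2 fold change of -0.19 (interval -1.23 to 0.85), and Plat, tissue plasminogen activator, had 0.48 (interval -0.94 to 1.90). Both lay near the detection limit. Procr had 0.0807 to 1.87 CPM in CDDP and 0.375 to 1.5 CPM in PBS, Plat had 0.114 to 1.45 CPM in CDDP and 0.12 to 1.34 CPM in PBS, and each interval is more than 2 log2 units wide.

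Most sinusoidal endothelial markers were also lower in CDDP, while the vascular ones mostly did not pass the test. The 14 sinusoidal endothelial markers, with none at 0 throughout a group, summed to 135 to 346 CPM in CDDP and 378 to 431 CPM in PBS, and 8 of them fell and 1 rose. The 10 vascular endothelial markers summed to 35.4 to 58.5 CPM in CDDP and 50.3 to 68.8 CPM in PBS, so these sums overlapped, and of the 9 tested 1 fell and none rose, against 18.3% and 23.1% of all genes. The lowest of all CDDP libraries on both sums, with 135 and 35.4 CPM, was CDDP 5. Thbd rose while the sinusoidal sum was lower in every CDDP library than in every PBS library. The part of the marker shift in the values of Tfpi, F8 and Vwf was not tested.

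**Figure D4:**
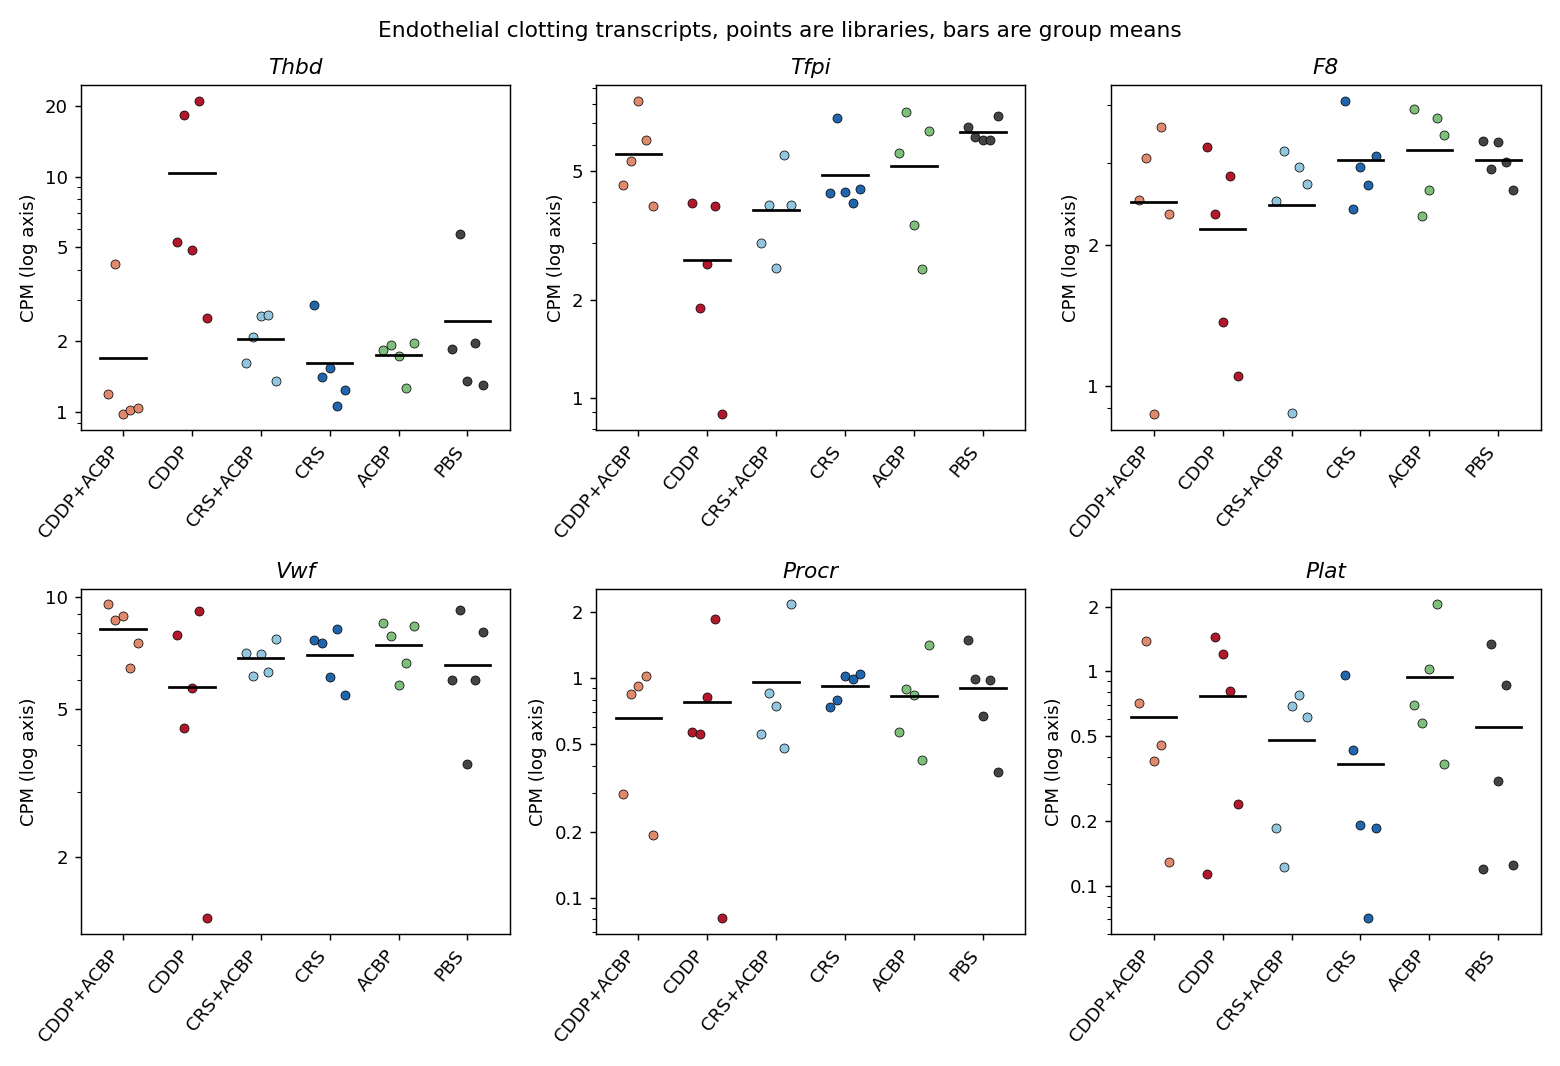
CPM on a log axis of the 6 endothelial genes, with 1 point per library and a bar at the group mean. In CDDP, Thbd reaches 21 CPM and all Tfpi libraries lie below PBS, while F8, Vwf, Procr and Plat overlap between the groups.

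F3, F13a1 and Plau were assigned to other cells, and their source in these livers was not tested. F3 encodes tissue factor, the trigger of clotting. It had 1.93, 3.84, 1.87, 1.21 and 0.645 CPM in CDDP and 5.02, 5.88, 5.59, 5.3 and 8.75 CPM in PBS. The groups did not overlap, and the log2 fold change was -1.67 ± 0.32 (SE, edgeR adjusted p = 0.000154). The 10 markers of stellate cells, the pericytes of the liver, summed to 138 to 316 CPM in CDDP and 371 to 778 CPM in PBS, with none at 0 throughout a group, and 6 of them fell and none rose. Their part in the F3 value was not tested. F13a1 encodes the enzyme subunit of factor XIII, made by macrophages, monocytes and megakaryocytes. It had 0.683, 0.501, 0.988, 3.88 and 0.323 CPM in CDDP and 0.179, 0.524, 0.123, 0.123 and 0.25 CPM in PBS. Its log2 fold change of 2.38 ± 0.73 (SE, edgeR adjusted p = 0.0103) rested on CDDP 4, since without that library it was 1.36 (edgeR adjusted p = 0.127). CDDP 4 also had the highest sum of the 8 monocyte and neutrophil markers, 85.5 CPM. That sum ranged from 23.2 to 85.5 CPM in CDDP and from 8.19 to 9.93 CPM in PBS, with Fcnb at 0 in both groups, and its part in the F13a1 value was not tested. The 12 Kupffer cell markers ran the other way, at 201 to 300 CPM in CDDP and 356 to 430 CPM in PBS. Plau, the urokinase gene, had 0.323 to 2.58 CPM in CDDP and 0.359 to 2.79 CPM in PBS (log2 fold change 0.43, 95% interval -0.73 to 1.58).

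Erythroid markers were lower in CDDP as well. The 7 in the table summed to 6.97 to 9.33 CPM in CDDP and 257 to 471 CPM in PBS, and 5 of the 6 tested fell. The part of these cells in the values of the 35 genes was not tested.

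Other genes of the same system were read from lists of companions of the 35, whose counts are to be read against the 23.1% of all genes that rose and the 18.3% that fell in CDDP against PBS. Of 10 tested genes of the plasminogen activator system, 5 rose and 2 fell. Tnfrsf12a, the receptor of the cytokine TWEAK, had 92.2 ± 68.0 CPM in CDDP and 10.2 ± 2.32 CPM in PBS (log2 fold change 3.18 ± 0.42, SE, edgeR adjusted p = 2.32e-06). Anxa2, a cell-surface annexin that binds plasminogen, had 47.2 ± 47.1 CPM in CDDP and 10.5 ± 1.28 CPM in PBS (log2 fold change 2.17 ± 0.45, SE). How far the fold changes of these companion genes rest on single libraries is not given here. Plgrkt, a plasminogen receptor, fell by 1.61 on the log2 scale, and Serpinb8, an intracellular serpin, fell by 1.79. Of 10 tested genes of vitamin K recycling and secretion, 6 rose and none fell. P4hb, a protein disulfide isomerase, had 1768 ± 325 CPM in CDDP and 757 ± 115 CPM in PBS (log2 fold change 1.22). Nqo1, a quinone reductase, had a log2 fold change of 1.84, Vkorc1l1, a vitamin K epoxide reductase, 1.0, and Mcfd2, part of the cargo receptor for factors V and VIII, 0.96.

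Of 15 tested genes that act on transcription of clotting genes, 7 rose and 1 fell in CDDP against PBS. Cebpd, a C/EBP factor of the acute-phase response, had 48.4 ± 49.4 CPM in CDDP and 7.98 ± 1.36 CPM in PBS (log2 fold change 2.60 ± 0.40, SE, edgeR adjusted p = 1.44e-05). Stat3, the main mediator of interleukin-6 signals, had 232 ± 149 CPM in CDDP and 79.0 ± 15 CPM in PBS (log2 fold change 1.55 ± 0.28). Hnf4a, a hepatocyte nuclear factor, had a log2 fold change of 0.72, and Onecut1, known as HNF6, 2.43. Of 9 tested genes of clearance, 1 rose and 3 fell. Adamts13, the protease that cuts von Willebrand factor, fell by 1.06 on the log2 scale, Stab2, a scavenger receptor of sinusoidal endothelium, by 0.80 and Clec4g, a sinusoidal lectin, by 0.69, while Asgr1, the asialoglycoprotein receptor of hepatocytes, rose by 0.47. Of 10 tested fibrinogen-like and related genes, 3 rose and 2 fell, shares close to those of all genes. Fgl1, a fibrinogen-like protein of hepatocytes, had 1143 ± 537 CPM in CDDP and 412 ± 37.9 CPM in PBS (log2 fold change 1.47). Tgm2, tissue transglutaminase, had 201 ± 176 CPM in CDDP and 72 ± 8.06 CPM in PBS (log2 fold change 1.48). St14, matriptase, had 6.07 ± 7.38 CPM in CDDP and 1.8 ± 0.428 CPM in PBS (log2 fold change 1.75). Hgfac, the protease that activates hepatocyte growth factor, fell by 1.38 on the log2 scale. Of 7 tested thrombin receptor and platelet genes, 3 rose and 2 fell, with Itgb3, an integrin chain, at a log2 fold change of 1.93, Thbs1, thrombospondin 1, at 2.27, Itga2b, its platelet partner chain, at -1.17 and P2ry12, an ADP receptor, at -3.28. The 7 platelet markers summed to 5.29 to 7.02 CPM in CDDP and 8.85 to 10.5 CPM in PBS, and their part in these values was not tested.

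CRS livers were compared with the same PBS libraries. None of the 35 genes passed the test, where 0.141% of all tested genes did. At an unadjusted p under 0.05 edgeR gave 5 of the 35 (Cpb2, F11, Fga, Fgg and Serpina10), all higher in CRS, and 8.97% of all tested genes. DESeq2 called 0. Limma voom with sample quality weights called 6, those 5 and Pros1, all higher with adjusted p from 0.00897 to 0.043, where it called 3.07% of all genes higher. The log2 difference was positive for 28 of the 35 genes, with a median of 0.22 against 0.00 over all genes, and for 25 of the 26 hepatocyte genes. Of the 11 hepatocyte markers outside the set, 7 were positive, with a median of 0.24. A positive sign was also frequent for the ACBP pump alone against the same PBS libraries, in 27 of the 35 genes with a median of 0.12. Fga had 917, 1166, 1889, 760 and 1185 CPM in CRS and 473, 709, 866, 745 and 341 CPM in PBS, overlapping through CRS 4 (log2 fold change 0.92 ± 0.40, SE, edgeR adjusted p = 0.51). Fgg had 1406, 2026, 2958, 1247 and 1953 CPM in CRS and 870, 1190, 1223, 1171 and 843 CPM in PBS, with no overlap (log2 fold change 0.86 ± 0.33, SE, edgeR adjusted p = 0.433). Cpb2 had 168, 219, 288, 131 and 205 CPM in CRS and 106, 117, 139, 126 and 99.5 CPM in PBS (log2 fold change 0.78 ± 0.25, SE, edgeR adjusted p = 0.298). Tfpi had 4.25, 7.24, 4.29, 3.97 and 4.4 CPM in CRS, and all but CRS 2 were below the lowest PBS value of 6.21 (log2 fold change -0.45, 95% interval -1.06 to 0.17). Klkb1 differed by 0.03 (interval -0.42 to 0.47) and F3 by -0.17 (interval -0.76 to 0.43). None of the 6 companion lists had a called gene in this comparison.

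CDDP and CRS livers were compared directly, which shares the CDDP libraries with the comparison above. In CDDP, 9 of the 35 genes were higher and 8 lower, where 19.5% of all tested genes were higher and 15.1% lower. The fibrinogen chains were higher in CDDP than in CRS, with log2 fold changes of 1.59 ± 0.40 for Fga, 1.30 ± 0.33 for Fgg and 0.96 ± 0.26 for Fgb (SE, edgeR adjusted p = 0.00309, 0.0034 and 0.00542). Thbd was at 2.68 ± 0.52 (edgeR adjusted p = 0.000255) and Pros1 at 1.45 ± 0.28 (edgeR adjusted p = 0.00021). Klkb1 at -1.44 ± 0.23, F3 at -1.50 ± 0.32 and Proc at -0.67 ± 0.14 were lower. F7 with 132 ± 61.9 CPM in CDDP and a mean of 230 CPM in CRS (log2 fold change -0.81, edgeR adjusted p = 0.00819), F10 (-0.51, edgeR adjusted p = 0.0238) and Vtn (-0.70, edgeR adjusted p = 0.007) were also lower. The F10 call was lost without CDDP 2, CDDP 4 or CRS 2 (edgeR adjusted p from 0.0506 to 0.0705). It was also lost without the filter on low counts (0.0567) and without the 7 libraries rich in muscle or brain transcripts (0.0577). Cpb2, at 0.37 with a 95% interval of -0.13 to 0.86, did not pass. In a fit of only these groups 9 genes were called in place of 17. The share of all tested genes called in that fit is not given here.

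The ACBP pump alone was compared with PBS. None of the 35 genes and 0% of all tested genes were called by edgeR, none of the 35 had an unadjusted p under 0.05, and DESeq2 and limma voom called none. For the unadjusted threshold the share of all tested genes is not given here. Fga had 797, 945, 860, 866 and 1122 CPM in ACBP, against 341 to 866 CPM in PBS (log2 fold change 0.55, 95% interval -0.22 to 1.33). Thbd differed by -0.49 (interval -1.47 to 0.50), F3 by -0.14 (interval -0.73 to 0.46) and Klkb1 by 0.17 (interval -0.27 to 0.61). These intervals still hold changes of the size of many called above. The log2 difference of ACBP over PBS was positive for 27 of the 35 genes, with a median of 0.12. CRS against the same PBS libraries gave 28 and 0.22.

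CDDP+ACBP livers were compared with CDDP livers, the contrast that asks how the pump altered the livers of cisplatin-treated mice. The CDDP libraries are the same as above, so a high or low value among them enters both comparisons. The fibrinogen chains, protein S and thrombomodulin stood lower in CDDP+ACBP, and tissue factor, prekallikrein and Tfpi stood higher. Of the 35 genes, 6 rose and 11 fell, where 14.9% of all tested genes rose and 18.8% fell. The median log2 fold change was -0.26 over the set and -0.01 over all genes. Hepatocyte genes gave 4 rises and 9 falls of 26. The 11 hepatocyte markers outside the set gave 2 rises and 4 falls with a median of -0.33.

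Fga had 1270, 1200, 454, 636 and 774 CPM in CDDP+ACBP, against 1991 to 5280 CPM in CDDP (log2 fold change -2.04 ± 0.41, SE, edgeR adjusted p = 0.000422). Fgg had 1980, 1849, 821, 1047 and 1548 CPM in CDDP+ACBP, against 2455 to 9295 CPM in CDDP (log2 fold change -1.70 ± 0.34, SE, edgeR adjusted p = 0.000368). Fgb had 2825, 2927, 1322, 2137 and 2564 CPM in CDDP+ACBP, against 3262 to 10562 CPM in CDDP (log2 fold change -1.32 ± 0.26, SE, edgeR adjusted p = 0.000389). The groups did not overlap for any chain. Without CDDP+ACBP 4, the library with low Cdkn1a, the log2 fold changes were -1.95, -1.61 and -1.29 for Fga, Fgg and Fgb.

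Pros1 had 34.8, 35.2, 32.5, 35.1 and 40.6 CPM in CDDP+ACBP, against 54.8 to 280 CPM in CDDP, with no overlap (log2 fold change -1.70 ± 0.28, SE, edgeR adjusted p = 4.87e-05). Thbd had 1.19, 4.25, 0.978, 1.02 and 1.04 CPM in CDDP+ACBP, against 2.5 to 21 CPM in CDDP (log2 fold change -2.61 ± 0.51, SE, edgeR adjusted p = 0.000361). The only CDDP+ACBP library within the CDDP range was the muscle-rich CDDP+ACBP 2. F3 had 6.36, 5.1, 8.43, 5.98 and 5.57 CPM in CDDP+ACBP, against 0.645 to 3.84 CPM in CDDP, and Klkb1 had 245, 227, 248, 284 and 391 CPM in CDDP+ACBP, against 72.2 to 183 CPM in CDDP. Neither gene overlapped between the groups, with log2 fold changes of 1.71 ± 0.32 for F3 (SE, edgeR adjusted p = 0.000191) and 1.31 ± 0.23 for Klkb1 (SE, edgeR adjusted p = 0.000113). Tfpi had 4.51, 5.36, 8.21, 6.21 and 3.89 CPM in CDDP+ACBP, against 0.887 to 3.98 CPM in CDDP, overlapping through CDDP+ACBP 5 (log2 fold change 1.08 ± 0.32, SE, edgeR adjusted p = 0.0101). The Tfpi call was lost with limma voom (0.80, adjusted p = 0.0656) and in the fit of only these groups (1.11, edgeR adjusted p = 0.0636).

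Smaller differences were called for the other hepatocyte genes. Apoh fell to 968 to 1824 CPM in CDDP+ACBP, against 1852 to 3848 CPM in CDDP (log2 fold change -0.89, edgeR adjusted p = 0.00342). Cpb2 fell by 0.83 (edgeR adjusted p = 0.0124), Hrg by 0.87 (0.0132), Kng2 by 0.55 (0.0224) and F12 by 0.48 (0.0249) on the log2 scale. Proc at 0.51 (edgeR adjusted p = 0.00669), F7 at 0.71 (0.0183) and Proz at 0.49 (0.04) rose. Hrg, Kng2, F12 and Proz lost their calls without CDDP 5, with edgeR adjusted p of 0.184, 0.186, 0.192 and 0.117. Limma voom called none of these genes (adjusted p from 0.0833 to 0.267). Of the 30 fits that left out 1 library, Proz lost its call in 6, F12 in 3 and Kng2 in 2. Kng2, F12 and Proz were also lost without the 7 libraries rich in muscle or brain transcripts (edgeR adjusted p = 0.0861, 0.0906 and 0.0567). F7 lost its call without CDDP 2, CDDP 4 or CDDP+ACBP 3 (edgeR adjusted p from 0.0603 to 0.0652). F13a1, with 0, 0.13, 0.297, 0.544 and 0.85 CPM in the CDDP+ACBP libraries in order of level, fell by 1.79 (edgeR adjusted p = 0.0481), a call lost in 24 of the 30 fits that left out 1 library. CDDP+ACBP 4 had no F13a1 read, and a count of 0 allows up to 3 reads. Without CDDP 5, 13 of the 35 genes were called, and without CDDP+ACBP 4, 14 were. In a fit of only these groups 7 were called in place of 17. The shares of all tested genes called in these fits are not given here, so a loss particular to the 35 genes is not shown.

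The marker sums moved here too. Sinusoidal endothelial markers summed to 331 to 430 CPM in CDDP+ACBP and 135 to 346 CPM in CDDP, with 7 of 14 higher and 1 lower. Stellate cell markers summed to 345 to 547 CPM in CDDP+ACBP and 138 to 316 CPM in CDDP, with 4 of 10 higher and none lower. Erythroid markers summed to 166 to 1222 CPM in CDDP+ACBP and 6.97 to 9.33 CPM in CDDP, with all 6 tested higher. Monocyte and neutrophil markers summed to 6.09 to 15.8 CPM in CDDP+ACBP and 23.2 to 85.5 CPM in CDDP. The part of these markers in the values of Tfpi, Thbd, F3 and F13a1 was not tested. Kupffer cell markers did not separate these groups, at 188 to 278 CPM in CDDP+ACBP and 201 to 300 CPM in CDDP. In the companion lists, to be read against the 14.9% of all genes that rose and the 18.8% that fell, no vitamin K or secretion gene rose and 6 of 10 fell. Of 15 transcription genes 1 rose and 6 fell, and of 10 plasminogen activator genes 2 rose and 4 fell. Of 9 clearance genes 3 rose and none fell, of 7 thrombin receptor and platelet genes 2 rose and 2 fell, and of 10 fibrinogen-like genes 2 rose and 3 fell. Cebpd had 9.09 ± 3.28 CPM in CDDP+ACBP and 48.4 ± 49.4 CPM in CDDP (log2 fold change -2.41, edgeR adjusted p = 5.44e-05), and Tnfrsf12a had 12.5 ± 3.99 CPM in CDDP+ACBP and 92.2 ± 68.0 CPM in CDDP (log2 fold change -2.89, edgeR adjusted p = 1.31e-05).

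The interaction of CDDP and ACBP sets the log2 fold change of CDDP+ACBP over CDDP against that of ACBP over PBS. It was called for 10 of the 35 genes, 3 positive and 7 negative, where 8.38% of all tested genes were positive and 11.3% negative. F3 at 1.85 ± 0.44, Tfpi at 1.44 ± 0.45 and Klkb1 at 1.14 ± 0.32 were positive (SE, edgeR adjusted p = 0.00444, 0.0236 and 0.0141). Fga at -2.59 ± 0.57, Fgg at -2.15 ± 0.47, Fgb at -1.73 ± 0.37 and Pros1 at -2.01 ± 0.39 were negative (SE, edgeR adjusted p = 0.00246, 0.0024, 0.00201 and 0.000907). Cpb2 at -1.30, Apoh at -1.0 and Thbd at -2.12 were also negative (edgeR adjusted p = 0.0117, 0.0265 and 0.0341). Thbd lost its call in 12 of the 30 fits that left out 1 library and in the fit of only the 4 groups involved (edgeR adjusted p = 0.0789). Apoh lost it in 5 of the 30, without the filter on low counts (0.0575) and without the 7 libraries rich in muscle or brain transcripts (0.102). Tfpi lost it without CDDP+ACBP 3 (edgeR adjusted p = 0.0548) and without those 7 libraries (0.0619).

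CDDP+ACBP livers were set against ACBP livers, the cisplatin contrast among mice with an ACBP pump. None of the 35 genes was called by edgeR, DESeq2 or limma voom, where edgeR called 0.129% of all tested genes, and none of the 35 had an unadjusted p under 0.05. For the unadjusted threshold the share of all tested genes is not given here. Fga differed by -0.08 (95% interval -0.86 to 0.69), Fgg by 0.00 (interval -0.64 to 0.64), Pros1 by -0.08 (interval -0.61 to 0.45), Klkb1 by -0.27 (interval -0.72 to 0.17) and F3 by 0.18 (interval -0.41 to 0.77). For each of these 5 genes the interval excludes the log2 fold change seen in CDDP against PBS, and the interaction above is the test of that difference. Kupffer cell markers, in contrast, summed to 188 to 278 CPM in CDDP+ACBP and 397 to 496 CPM in ACBP.

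The ACBP pump gave no called gene of the set on the CRS background. CRS+ACBP against CRS had 0 calls among the 35 and 0% among all tested genes, CRS+ACBP against ACBP had 0 and 0%, and the interaction of CRS and ACBP had 0 and 0%. At an unadjusted p under 0.05 these comparisons had 0, 1 and 0 of the 35 genes, and DESeq2 and limma voom called 0 in each. The shares of all tested genes at the unadjusted threshold are not given here, so these counts cannot be set against them. Fga had 3416, 1185, 1325, 351 and 768 CPM in CRS+ACBP and 917, 1166, 1889, 760 and 1185 CPM in CRS. CRS+ACBP 1 was the highest and CRS+ACBP 4 the lowest of these 10 libraries (log2 fold change 0.25, 95% interval -0.52 to 1.02). Klkb1 had 268, 335, 316, 590 and 416 CPM in CRS+ACBP and 255, 315, 312, 310 and 336 CPM in CRS (log2 fold change 0.33, interval -0.11 to 0.78).

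**Figure D5:**
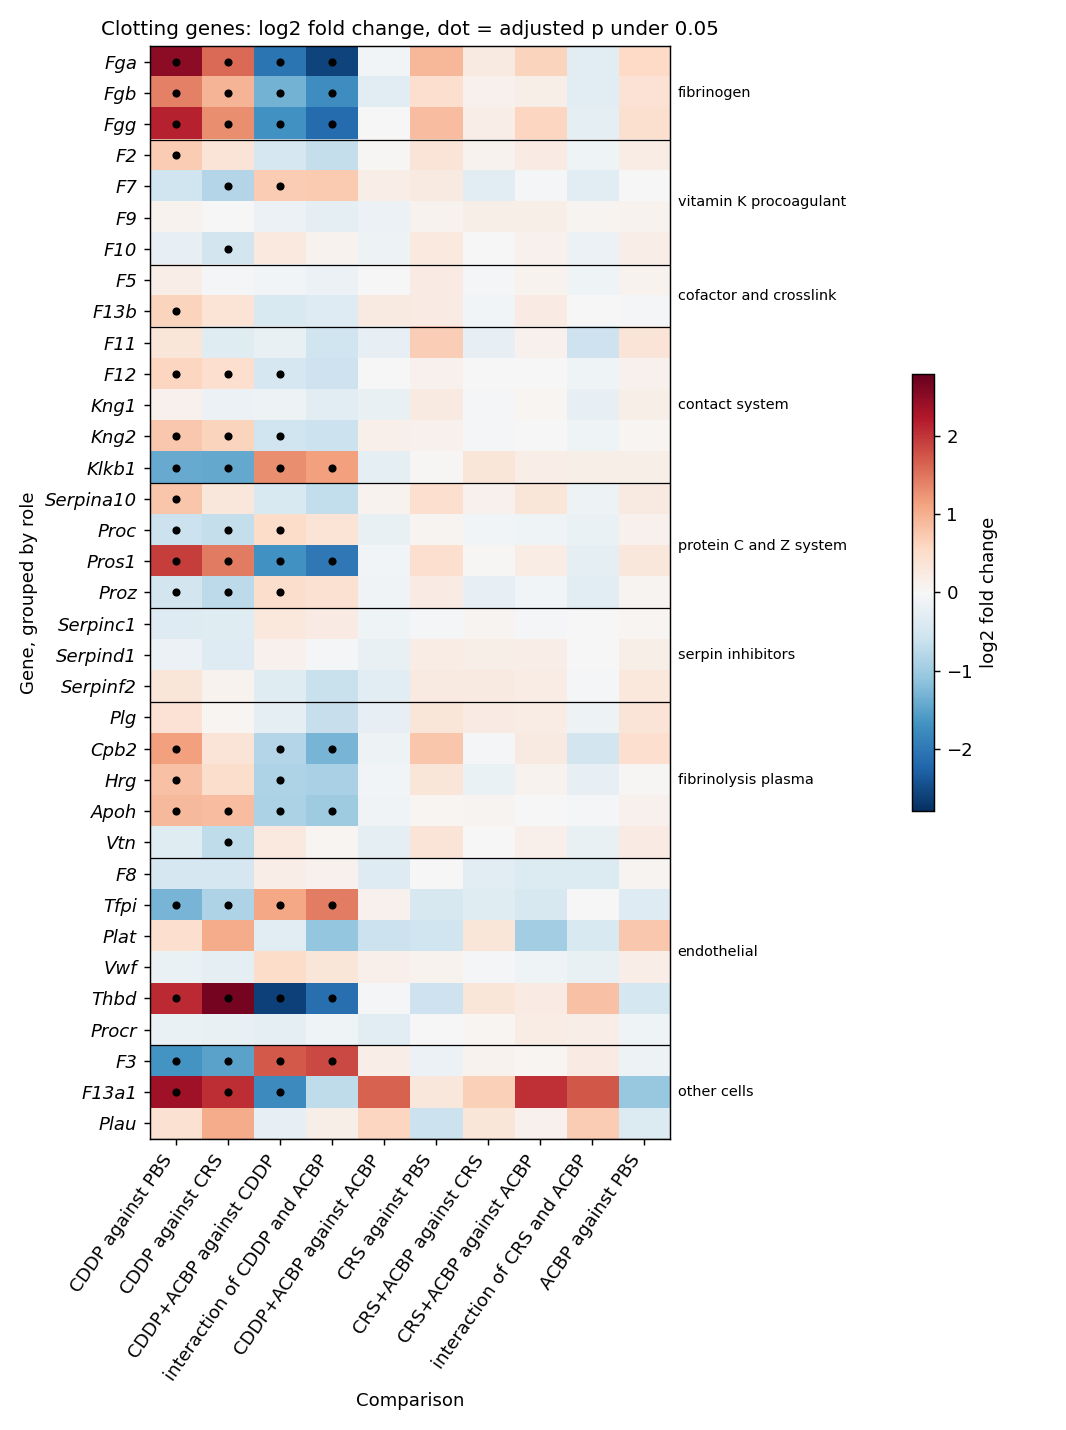
Log2 fold change of each of the 35 tested genes (rows, grouped by role) in the 10 comparisons (columns), red for higher and blue for lower in the group named first, with a dot where the edgeR adjusted p was under 0.05. The first 4 columns share the CDDP libraries and hold all 63 dots, and Fga runs from 2.51 in CDDP against PBS to -2.59 in the interaction.

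Across the 6 groups, the 26 hepatocyte genes together held, as a share of the reads on genes, 2.22% ± 0.282 in CDDP+ACBP, 3.07% ± 0.706 in CDDP, 2.55% ± 0.425 in CRS+ACBP, 2.46% ± 0.307 in CRS, 2.39% ± 0.166 in ACBP and 2.07% ± 0.101 in PBS (SD, n = 5 each). Without the fibrinogen chains the share was 1.73% ± 0.144 in CDDP+ACBP, 1.76% ± 0.365 in CDDP, 1.89% ± 0.137 in CRS+ACBP, 1.86% ± 0.162 in CRS, 1.86% ± 0.134 in ACBP and 1.67% ± 0.0666 in PBS. The rise of the hepatocyte share in CDDP over PBS thus lay mostly in fibrinogen. The 6 endothelial genes took 0.00206% ± 0.000454 in CDDP+ACBP, 0.00231% ± 0.00145 in CDDP, 0.0016% ± 0.000202 in CRS+ACBP, 0.00175% ± 0.000275 in CRS, 0.00195% ± 0.000283 in ACBP and 0.00206% ± 0.00043 in PBS. The endothelial shares differed between groups by less than the spread within CDDP, where Thbd and Tfpi moved in opposite directions. These shares were not tested.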

How the data were processed

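Liver mRNA of 30 libraries was read from a deposited table of raw read counts, which the authors had not normalized. Per the submitters' processing notes, HISAT2 2.2.1 and HTSeq 2.0.3 were used with build mm10. Neither the annotation release nor the strand setting is given in the sources used here. Per the labels' protocols the libraries were strand-specific. The 5 summary lines of unassigned reads, with a median of 43.44% on no gene and 10.97% not unique, were left out. Groups came from the treatment labels. Replicates differed from each other, with a chi-square over its degrees of freedom of at least 21.1 for every pair within a group, so no library was a copy.

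The test was edgeR's quasi-likelihood F test (edgeR 4.0.16, R 4.3.3, filterByExpr, TMM scaling, Benjamini-Hochberg adjustment) in 1 fit of 6 group coefficients with 24 residual degrees of freedom, for 10 comparisons, and checked on simulated data. Approximate standard errors and 95% intervals come from the fold change and its F value. The intervals cover the spread between libraries. Alternatives were RLE normalization, no filter, DESeq2 1.42.0, each library left out, a fit restricted to the groups compared, limma 3.58.1 voom with sample quality weights, and, chosen after seeing the data, 7 libraries rich in muscle or brain transcripts left out. Exon lengths and coordinates came from GENCODE vM21, which held 99.2% of the identifiers.

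The genes of the set were chosen by function and not for how they behaved. Earlier results of these data were nevertheless known when the genes, lists and tests were chosen. The rule for fully described genes took the fibrinogen and endothelial genes, the 10 largest called changes against PBS, and any gene called in a comparison of the ACBP pump, which made 23. The other genes are given by mean, difference or interval.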

Additional observations from a re-analysis of the deposited data

Results flagged for a closer look

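Some libraries lay far from the other 4 of their group, by the gap to the nearest divided by the range of the group. This was looked for in 138 groups of 5 libraries, 23 genes in 6 treatments, and found in 16. Chance alone marks about 1 in 20 groups. In CDDP, replicate 5 was high for F12 (1384 CPM), Pros1 (280 CPM) and Hrg (2132 CPM), and replicate 4 was high for F13a1 (3.88 CPM). In CDDP+ACBP, replicate 2 was high for Thbd (4.25 CPM). In CRS+ACBP, replicate 1 was high for Fgb (5198 CPM) and Fgg (4391 CPM), and replicate 5 was high for Procr (2.17 CPM). In CRS, replicate 1 was low for Proc (769 CPM) and Proz (367 CPM) and high for Thbd (2.84 CPM), replicate 5 was high for Kng2 (440 CPM), and replicate 2 was high for Tfpi (7.24 CPM). In PBS, replicate 5 was high for F3 (8.75 CPM), replicate 1 was low for Klkb1 (271 CPM), and replicate 2 was high for Thbd (5.7 CPM). The 3 libraries marked for Thbd are all among the 6 richest in muscle transcripts. The part of muscle in these Thbd values was not tested.

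The difference between the effect of the ACBP pump in CDDP mice and its effect without CDDP was itself tested, as the interaction in edgeR, and was called for 10 genes of the 35. Its log2 value was -2.59 for Fga, -2.15 for Fgg, -1.73 for Fgb, -2.01 for Pros1, -2.12 for Thbd, -1.30 for Cpb2 and -1.0 for Apoh. It was 1.85 for F3, 1.44 for Tfpi and 1.14 for Klkb1.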

How the results depend on the processing

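The count of called genes kept within 1.5 times its main value under each alternative, except for these. CRS against PBS had 0 calls and limma voom with sample quality weights gave 6. CDDP+ACBP against CDDP had 17 and the fit of only those groups gave 7, without Apoh, Cpb2, F12, F13a1, F7, Hrg, Kng2, Proc, Proz and Tfpi (adjusted p from 0.0636 to 0.263). CDDP against CRS had 17 and the fit of only those groups gave 9, without F10, F12, F7, Fgb, Kng2, Tfpi and Vtn (0.0615 to 0.18) and with F13a1 not tested. The cause was not tested. Leaving out 1 library at a time gave 17 to 20 calls in CDDP against PBS (19 with all), 13 to 17 in CDDP+ACBP against CDDP, 15 to 17 in CDDP against CRS, 7 to 13 for the interaction of CDDP and ACBP (10 with all), and 0 to 0 in the other 6 comparisons. Leaving out the 7 libraries rich in muscle or brain transcripts, chosen after seeing the data, gave 18, 14, 13 and 8 calls in the same 4 comparisons, and 0 in the other 6. No called difference of the 23 fully described genes turned its direction under any alternative. In CDDP against PBS, the fit of only those groups left out F2, F12, Hrg and Proz (adjusted p from 0.0692 to 0.103) and did not test F13a1, which failed its filter. Limma voom left out Hrg and Proz (0.111 and 0.0811) and added falls of F7 and Vtn (0.0156 and 0.0351). Hrg was lost without the 7 libraries (0.0525) and Proz without the filter on low counts (0.0549). DESeq2 and RLE normalization also added F7 (0.0338 and 0.0468). No paired analysis was possible because the labels number the libraries through the series and share no replicate number between groups. F13a1, Plat, Plau and Procr have few reads, down to 0 in 2 libraries for F13a1, which limits what could be detected for them.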
